A study of Mus musculus with 13 samples.

Results

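Ribosomal protein genes were compared in RNA of 6 medulloblastomas from Ptch1(+/-) mice, 3 wildtype samples of granule neuron precursors of the postnatal cerebellum (P7 GNPC) and 4 wildtype samples of embryonic dorsal brainstem (E16.5 DBS), with P7 and E16.5 giving the age in days after birth and after conception. Each sample came from its own untreated mouse and was hybridised to 1 Affymetrix mouse array of 45101 probe sets. Members were all probe sets with 1 platform gene symbol that begins with Rpl or Rps and a digit, or is Rplp0, Rplp1, Rplp2 or Rpsa, without the Rps6k kinases, Rps4l and pseudogene symbols. The rule gave 105 probe sets of 49 genes, out of 34945 probe sets of 18193 genes with 1 symbol. Of these, 93 probe sets of 46 genes exceeded their own array's median on at least 3 of the 13 arrays and were tested. The genes Rpl3l, Rpl39l and Rps16 did not pass this filter, with mean intensities of 18.1, 30.0 and 1.1 for a probe set of each. A further 110 probe sets carry a family symbol together with other symbols. They hold 31 family symbols found nowhere else, among them Rplp1, Rpl3, Rpl5 and Rpl10, and are described below without gene names. The tumours are those of a mouse with 1 inactivated copy of Ptch1, the receptor that restrains hedgehog signalling, and the labels give neither their age nor the share of other cells in them. A tumour group with a Ctnnb1 alteration was not analysed here.

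The ribosome is built from ribosomal RNA and one protein from each ribosomal protein gene, joined into a small subunit, which reads the mRNA, and a large subunit, which forms the peptide bond. Ribosomal protein mRNAs are among the most abundant of any cell, and most begin with a C followed by an unbroken run of pyrimidines, the 5′ terminal oligopyrimidine (TOP) motif. Through this motif their translation follows growth signals that act through the kinase mTOR. MYC family proteins promote transcription of ribosomal protein genes, ribosomal RNA and the factors that assemble ribosomes. In the postnatal cerebellum, granule neuron precursors divide under Sonic hedgehog, and Mycn is one of its known targets there.

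Ribosomal protein genes were higher in the tumours than in either normal tissue, by a modest amount and in most members. Against GNPC, 40 of the 46 measured genes were higher in tumours, 0 were lower and 6 did not pass the test, where 22.5% of all 12270 genes were called higher and 26.3% lower. Against DBS, 34 were higher, 0 were lower and 12 did not pass, where 34.9% of all genes were called higher and 35.5% lower. A call is a Benjamini-Hochberg adjusted p under 0.05 in a limma fit of log2(intensity + 18) across 21628 probe sets, each gene being read from its probe set with the highest mean. The median log2 difference of the 46 genes was 0.52 in both comparisons, beside medians of -0.03 and 0.00 over all genes. A difference of at least 2-fold was seen in 5 genes against GNPC, where 6.58% of all genes rose that far, and in 7 against DBS, where 15.5% did. Of the 46 genes, 32 were higher than both normal tissues, 8 passed only against GNPC, 2 only against DBS and 4 in neither. The shares of all genes with these joint patterns were not counted, so these 4 counts only describe the family. Both tumour comparisons use the same tumour arrays.

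The median level of the 46 genes, on the log2(intensity + 18) scale, was 14.09, 13.90, 14.08, 14.31, 14.23 and 14.18 in tumours 1 to 6. The GNPC samples had 13.52, 13.50 and 13.52, and DBS 1 to 4 had 13.53, 13.26, 13.69 and 13.39. The tumour with the lowest median, tumour 2, stood above the highest normal sample, DBS 3. Within the tumours, tumour 2 had the lowest value for 32 of the 46 genes, and tumours 4 and 5 the highest for 23 and 18. Within the DBS samples, DBS 3 was highest for 39 genes and DBS 2 lowest for 24. Every tumour value exceeded every GNPC value in 39 genes (21.0% of all genes behaved so) and every DBS value in 31 genes (27.2%).

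**Figure D1:**
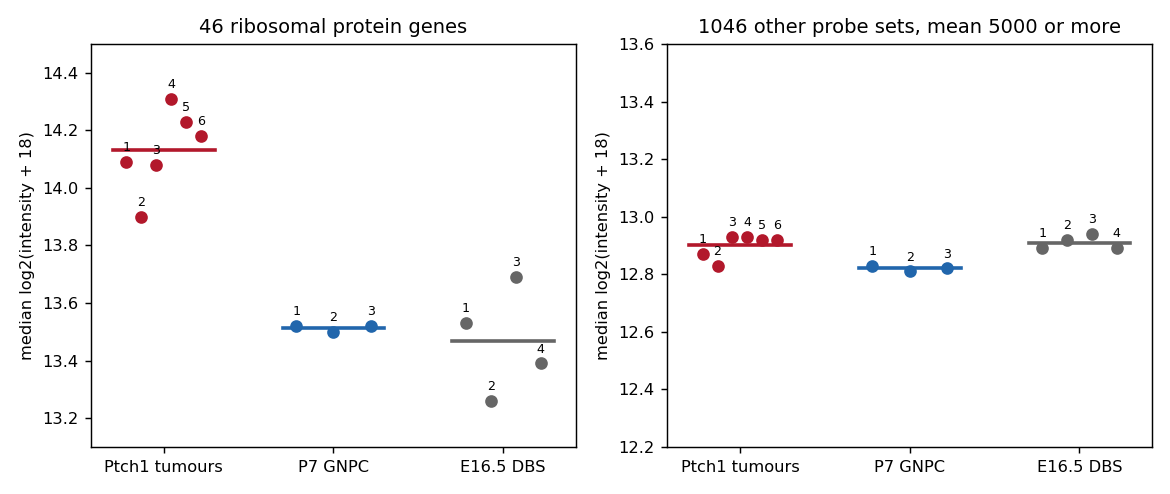
Median log2(intensity + 18) in each sample, over the 46 measured ribosomal protein genes (left) and over 1046 other probe sets with a mean intensity of 5000 or more (right). Points are samples with their numbers and lines are group means; both axes span the same range of log2 units. The 6 tumours lie between 13.90 and 14.31, above all normal samples, while the other bright probe sets lie between 12.81 and 12.94 in all 13.

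Several features of the samples moved with the groups, and their part in these differences was not tested. Other bright probe sets, with a mean intensity of at least 5000, had median log2 differences of 0.08 against GNPC and 0.01 against DBS (n = 1046), and the 61 family probe sets in that range had 0.59 and 0.57. The 14 measured cell-cycle genes had median levels of 12.13 to 12.61 in tumours, 10.72 to 11.34 in GNPC and 9.06 to 9.38 in DBS. The log2 ratio of 3′ to 5′ control probe sets of Gapdh and beta-actin, a measure of RNA quality, was 1.33 to 1.59 in tumours, 1.11 to 1.19 in GNPC and 1.23, 2.42, 1.70 and 1.65 in DBS 1 to 4. Without DBS 2, whose ratio was the highest, 34 family genes were still higher in tumours than in DBS, with a median difference of 0.44. GNPC samples also carried markers of other cells: the summed intensity of 4 Purkinje cell genes was 324 to 9198 in tumours, 29042 to 35499 in GNPC and 3373 to 4070 in DBS. The corresponding sums were 6143 to 18865, 38176 to 42753 and 74892 to 81848 for 6 genes of neurons, 4020 to 16456, 26953 to 35686 and 7631 to 10716 for 5 genes of glia, and 1523 to 2516, 8651 to 10120 and 4601 to 7577 for 6 genes of meninges. For 8 microglial genes they were 5612 to 15945, 5333 to 6498 and 5101 to 5266, and for 4 blood genes 10.2 to 136, 231 to 452 and 296 to 1314. Taken gene by gene, 6 of the 8 microglial genes were at least 2-fold higher in tumours than in GNPC, and 6 than in DBS. Their median log2 differences were 1.51 and 2.09, and 0 were lower. Of all genes, 6.58% and 15.5% rose that far. The labelled tissues held their own markers: 5 granule precursor genes summed to 40749 to 44938 in tumours, 39855 to 43821 in GNPC and 14439 to 19780 in DBS, and 7 Hox genes of the hindbrain to 46 to 143, 92.8 to 108 and 21058 to 31047. Taken singly, 2 of the 5 granule precursor genes were higher in tumours than in GNPC and 1 lower. Their log2 differences ran from -0.65 to 3.01, the highest being that of Atoh1. Of all genes, 22.5% were called higher and 26.3% lower in that comparison. In tissue samples, a change in which cells are present and a change in the RNA of each cell cannot be told apart. The labels give no batch.

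The bases around the transcription start are shown because the TOP motif is the feature these mRNAs are known to share. They are given for the stalk, Rpl11, Rpsa, Rps6, Rps19 and the paralogs with their partners, a set chosen by role and not by its sequences. Of these 14 tested members, 13 had an annotated start window. Each line gives 30 bases of the coding strand, from RefSeq on GRCm38.p6, with 15 bases before the annotated start and 15 from it on. Capitals mark an unbroken run of at least 8 C or T.
Rplp0, chr5:115559452-115559481, plus strand: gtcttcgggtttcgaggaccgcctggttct
Rplp2, chr7:141447636-141447665, plus strand: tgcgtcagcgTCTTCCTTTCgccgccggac
Rpl11, chr4:136053379-136053408, minus strand: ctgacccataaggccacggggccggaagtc
Rpsa, chr9:120127751-120127780, plus strand: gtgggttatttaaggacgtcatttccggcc
Rps6, chr4:86857353-86857382, minus strand: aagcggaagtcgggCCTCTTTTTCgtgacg
Rps19, chr7:24884577-24884606, plus strand: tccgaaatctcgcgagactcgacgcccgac
Rpl22, chr4:152324421-152324450, plus strand: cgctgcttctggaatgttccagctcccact
Rpl22l1, chr3:28805493-28805522, plus strand: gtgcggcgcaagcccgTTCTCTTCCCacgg
Rpl7l1, chr17:46782642-46782671, minus strand: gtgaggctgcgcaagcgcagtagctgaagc
Rpl39, chrX:37085208-37085237, minus strand: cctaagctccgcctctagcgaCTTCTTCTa
Rps27, chr3:90213634-90213663, minus strand: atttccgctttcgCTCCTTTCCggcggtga
Rps27l, chr9:66946071-66946100, plus strand: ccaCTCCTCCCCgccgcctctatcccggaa
Rps19bp1, chr15:80264292-80264321, minus strand: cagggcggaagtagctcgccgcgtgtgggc

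Of the 13, 6 hold such a run and 7 do not. In 3 of them, Rplp2, Rps6 and Rps27, the start base is a C inside the run. In Rps27l the run lies before the annotated start, and in Rpl22l1 and Rpl39 after it. Of the 49 members, 44 had an annotated start window. A run of at least 8 C or T within 20 bases of the start lay on the coding strand in 19 of them (43.2%), against 15.4% of 17491 protein-coding genes, and on the other strand in 1 (2.27%), against 16.8%. A start base C followed by 4 pyrimidines was found in 8 members (18.2%) and in 2.17% of all genes. In the window from 250 bases before the start to 50 after it, the letters CCGGAAG, on either strand, occurred in 21 members (47.7%) and in 11.9% of all genes. AAGATGG, also on either strand, occurred in 8 members (18.2%) and in 6.35% of all genes. These counts describe letters at annotated starts, and a missing run says only that it is not in this window.

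The stalk of the large subunit, which recruits elongation factors, was represented by Rplp0 and Rplp2, and both were higher in tumours than in either tissue. Rplp0, the base of the stalk, had intensities of 22762.4, 22989.6, 22372.1, 20919.2, 24651.7 and 24562.9 in the 6 tumours, against 17788.7, 17189.3 and 16466.3 in GNPC and 18457.4, 11906.3, 19859.0 and 14121.1 in DBS. All tumours lay above all normal samples, and DBS 2 and DBS 4 were lowest. The log2 difference was 0.42 ± 0.13 (SE) against GNPC, with a limma adjusted p of 0.013, and 0.55 ± 0.12 against DBS, with 0.000656. Without GNPC 3 the first of these had an adjusted p of 0.0527, and after quantile normalization it was 0.14 with an adjusted p of 0.438. Rplp2, one of the acidic proteins bound to that base, averaged 21555 ± 2460 in tumours (SD, n = 6), 14235 ± 968 in GNPC (n = 3) and 12527 ± 2210 in DBS (n = 4). Its log2 differences were 0.59 ± 0.12 and 0.79 ± 0.11 (adjusted p = 0.000954 and 1.21e-05 in limma), and between GNPC and DBS it was 0.20 ± 0.13 and did not pass (adjusted p = 0.231).

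**Figure D2:**
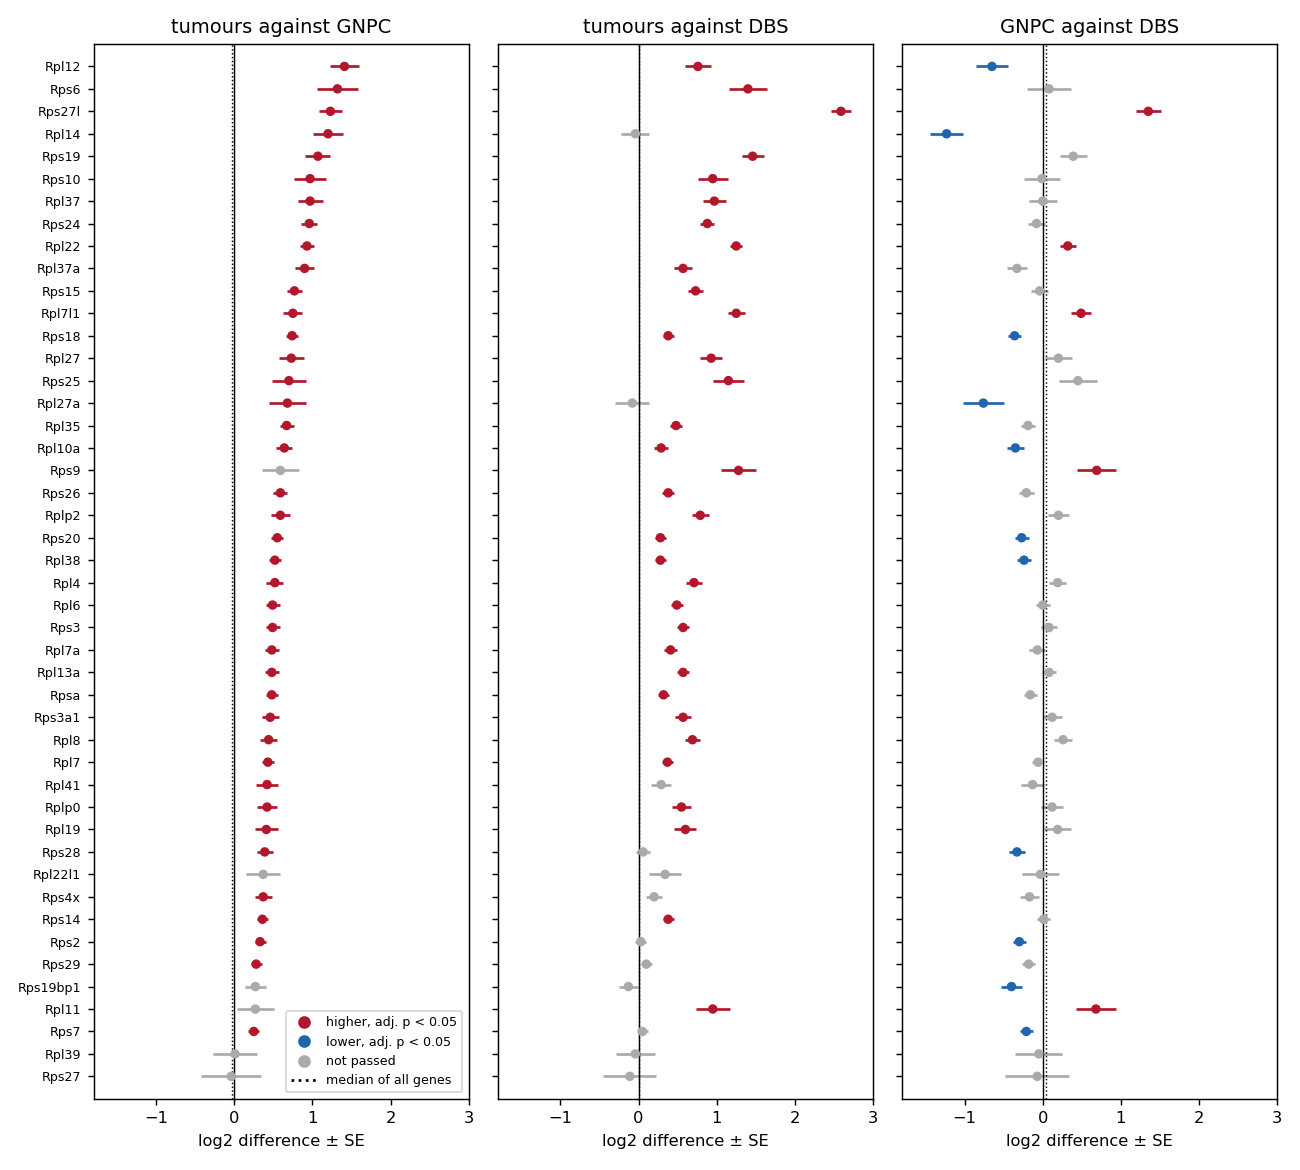
Log2 difference ± SE of each of the 46 measured ribosomal protein genes in the 3 comparisons, with genes in the order of the difference between tumours and GNPC. Red marks genes called higher and blue genes called lower at an adjusted p under 0.05, grey those that did not pass, and the dotted line is the median of all 12270 genes. In the tumour comparisons 40 and 34 genes are red and 0 are blue; between GNPC and DBS 5 are red and 11 blue.

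Of the other large subunit genes, leaving out Rpl11 and the paralogs, 18 of 19 were higher in tumours than in GNPC and 15 of 19 higher than in DBS, with median log2 differences of 0.52 and 0.49. Rpl22, a protein of the large subunit that is dispensable for translation, was the member of this group with the largest difference from DBS. Its intensities were 18641.8, 17797.4, 19790.9, 23148.8, 23058.9 and 21382.1 in tumours, 10694.8, 10834.0 and 10878.8 in GNPC and 8606.4, 7980.4, 9432.1 and 8595.0 in DBS. The 3 groups did not overlap. The log2 difference was 0.93 ± 0.09 against GNPC and 1.25 ± 0.08 against DBS (adjusted p = 2.61e-06 and 5.49e-09). Between GNPC and DBS it was 0.32 ± 0.10 (adjusted p = 0.0162), but 0.0506 without GNPC 3, 0.239 with arrays at the same median, and another Rpl22 probe set gave -0.26 ± 0.16 (adjusted p = 0.211). That probe set was higher in tumours than in GNPC by 0.57 ± 0.15 (adjusted p = 0.00681), and its difference from DBS was 0.30 ± 0.14 (adjusted p = 0.0635). The other Rpl22 probe set gave 1.71 ± 0.35 and 1.55 ± 0.32 (adjusted p = 0.00118 and 0.000595).

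Among the 46 genes, each read from its brightest probe set, Rpl12 had the largest log2 difference between tumours and GNPC. Rpl12 lies at the foot of the stalk, and its probe set had a mean intensity of 602.3, lower than in most members. Its intensities were 598.7, 1073.3, 840.1, 896.8, 886.3 and 705.6 in tumours, 325.7, 363.8 and 222.2 in GNPC and 486.2, 446.5, 555.5 and 429.1 in DBS. Tumours lay above DBS and DBS above GNPC with no overlap. Rpl12 was higher than in GNPC by 1.41 ± 0.19 on the log2 scale (adjusted p = 3.1e-05) and than in DBS by 0.76 ± 0.17 (adjusted p = 0.00103). Rpl14 followed another pattern, with tumours overlapping DBS and GNPC below both. It had 937.6, 764.2, 1077.8, 1382.4, 1403.1 and 1340.1 in tumours, 502.9, 494.0 and 445.8 in GNPC and 1223.1, 1008.4, 1458.7 and 978.1 in DBS. Rpl14 was higher in tumours than in GNPC by 1.20 ± 0.19 on the log2 scale (adjusted p = 0.000161), and its difference from DBS was -0.04 ± 0.18 (adjusted p = 0.867). Rpl37, a zinc-binding protein of the large subunit, averaged 1575 ± 296 in tumours, 784 ± 60.0 in GNPC and 791 ± 150 in DBS, a log2 difference of 0.97 from each (adjusted p = 0.000254 and 3.89e-05). Rpl27a had log2 differences of 0.68 ± 0.24 from GNPC (adjusted p = 0.0333) and -0.08 ± 0.22 from DBS, and the first did not pass when any 1 GNPC sample, tumour 3 or tumour 4 was left out, with adjusted p up to 0.109.

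Of the remaining large subunit genes, Rpl39 is described with the paralogs, and the others had log2 differences between 0.28 and 0.93. Rpl13a had 32215.9, 29654.1, 30824.4, 31574.1, 35353.2 and 32988.4 in tumours, 22817.8, 23912.1 and 22121.1 in GNPC and 21324.4, 19462.1, 26251.3 and 20191.6 in DBS, with all tumours above all normal samples. Its log2 differences were 0.48 ± 0.09 and 0.57 ± 0.08 (adjusted p = 0.000391 and 1.39e-05). Against GNPC, Rpl37a and Rpl27 were higher by 0.90 and 0.73, Rpl35 by 0.67 and Rpl10a by 0.64. Rpl38, Rpl4, Rpl6 and Rpl7a were higher by 0.52, 0.52, 0.49 and 0.48, and Rpl8 and Rpl19 by 0.44 and 0.41. Against DBS the same genes were higher by 0.57 (Rpl37a), 0.93 (Rpl27), 0.48 (Rpl35), 0.29 (Rpl10a), 0.28 (Rpl38), 0.71 (Rpl4), 0.49 (Rpl6), 0.41 (Rpl7a), 0.69 (Rpl8) and 0.60 (Rpl19). The dimmest Rpl37a probe set gave -0.15 ± 0.26 against GNPC and 0.14 ± 0.24 against DBS and did not pass (adjusted p = 0.667 and 0.614). The remaining Rpl37a probe set gave 0.91 ± 0.29 and 1.13 ± 0.27 (adjusted p = 0.0193 and 0.00153). Rpl41, the shortest ribosomal protein, was higher than in GNPC by 0.42 ± 0.14 (adjusted p = 0.0259) and had a log2 difference of 0.29 ± 0.13 from DBS (adjusted p = 0.0623), which passed in 3 of the 10 fits that left out 1 sample. Of the dimmer Rpl41 probe sets, those with differences of 1.33 ± 0.16 and 1.22 ± 0.18 from DBS passed (adjusted p = 2.46e-06 and 1.87e-05). The one with 0.46 ± 0.21 did not (adjusted p = 0.0698). Against GNPC, Rpl19 and Rpl41 did not pass in some of the fits that left out 1 sample, 7 of 9 and 3 of 9.

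Rpl11, which with Rpl5 binds 5S ribosomal RNA and, when free, inhibits the p53 ligase Mdm2, passed the test against DBS and not against GNPC. Its intensities were 12849.6, 9843.3, 10692.4, 13903.9, 15072.7 and 11361.7 in tumours, 9150.9, 9274.1 and 12110.2 in GNPC and 8460.7, 3563.6, 9165.2 and 5631.4 in DBS. Tumours overlapped with GNPC 3 but lay above every DBS sample. Rpl11 had log2 differences of 0.27 ± 0.24 against GNPC (adjusted p = 0.379) and 0.95 ± 0.22 against DBS (adjusted p = 0.00117). Mdm2 itself had a log2 difference of 0.44 ± 0.19 from GNPC (adjusted p = 0.0666) and was higher than in DBS by 0.47 ± 0.17 (adjusted p = 0.0234, and up to 0.0661 with 1 sample left out).

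Of the small subunit genes, 18 of 20 were higher in tumours than in GNPC and 14 of 20 higher than in DBS, with median log2 differences of 0.52 and 0.38. Rps19, whose human counterpart is mutated in Diamond-Blackfan anaemia, had intensities of 11597.6, 12084.7, 11928.9, 15129.4, 15169.9 and 11436.5 in tumours. In GNPC it had 6149.5, 5639.3 and 6564.3, and in DBS 5812.0, 3466.4, 5741.0 and 4050.7. Every tumour stood above every normal sample. Rps19 had log2 differences of 1.07 ± 0.16 against GNPC (adjusted p = 7.98e-05) and 1.46 ± 0.14 against DBS (adjusted p = 3.67e-07).

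Rps6, the small subunit protein phosphorylated by S6 kinase downstream of mTOR, was uneven among the tumours. Its intensities were 1731.1, 2226.8, 2119.0, 1608.2, 4248.7 and 3770.0 in tumours, 1167.7, 943.2 and 820.1 in GNPC and 919.4, 915.3, 993.7 and 842.3 in DBS. Tumours 5 and 6 were high, the other 4 closer to the normal samples, and no tumour overlapped with them. The relative SD among tumours was 42.5%, exceeded only by Rps27 (49.3%) and followed by Rpl39 (31.6%), both of which were dim. The log2 difference of Rps6 was 1.32 ± 0.26 against GNPC and 1.40 ± 0.24 against DBS (adjusted p = 0.000907 and 0.000109).

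Rpsa, the laminin receptor-like protein of the small subunit, showed a smaller and more even difference. It had 25811.2, 24484.0, 25828.2, 29852.2, 29761.6 and 26644.6 in tumours, 19705.4, 19459.1 and 19036.9 in GNPC and 20145.4, 21512.0, 24199.1 and 20912.4 in DBS. Rpsa had log2 differences of 0.48 ± 0.08 against GNPC (adjusted p = 0.000181) and 0.32 ± 0.07 against DBS (adjusted p = 0.00098). Rps18, a protein of the head of the small subunit, was higher in tumours by 0.74 ± 0.08 and 0.38 ± 0.07 (adjusted p = 4.07e-06 and 0.00019). Rps25, which some viral internal ribosome entry sites need, averaged 1639 ± 447 in tumours, 967 ± 124 in GNPC and 703 ± 69.4 in DBS. Its log2 differences were 0.70 ± 0.22 (adjusted p = 0.0183, and up to 0.0926 with 1 sample left out) and 1.15 ± 0.20 (adjusted p = 0.00014). Rps9, which shapes decoding accuracy in yeast, had 13989.4, 12745.7, 12829.2, 16353.7, 17350.8 and 14007.6 in tumours, 9673.9, 9047.8 and 10017.5 in GNPC and 8624.7, 3155.1, 8331.5 and 5467.2 in DBS. Rps9 was higher in tumours than in DBS by 1.28 ± 0.22 (adjusted p = 8.78e-05). Its difference from GNPC was 0.59 ± 0.24 and narrowly missed the threshold (adjusted p = 0.0527), although no tumour overlapped with GNPC. It passed with arrays at the same median (0.84, adjusted p = 0.0116) and in a fit of those 2 groups alone (adjusted p = 0.00115).

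Among the remaining small subunit genes, Rps24 had 17396.6, 14785.6, 15264.3, 19453.5, 17277.2 and 15978.7 in tumours, 9068.2, 7490.6 and 9143.5 in GNPC and 9141.6, 7832.1, 9736.7 and 9430.1 in DBS. It was higher by 0.96 ± 0.10 and 0.88 ± 0.09 (adjusted p = 5.25e-06 and 7.83e-07), with all tumours above all normal samples. Rps15, Rps26 and Rps20 were higher than in GNPC by 0.77, 0.59 and 0.55 and than in DBS by 0.73, 0.38 and 0.28. Rps3, Rps3a1 and Rps14 were higher than in GNPC by 0.49, 0.46 and 0.36 and than in DBS by 0.57, 0.57 and 0.38. Rps2, Rps4x, Rps7, Rps28 and Rps29 passed against GNPC, with log2 differences of 0.33, 0.37, 0.25, 0.39 and 0.28. Against DBS these 5 had 0.03, 0.20, 0.05, 0.06 and 0.10 and did not pass (adjusted p = 0.688, 0.101, 0.546, 0.55 and 0.191). This depended on the probe set, as a dimmer Rps7 probe set was higher than in DBS by 1.47 ± 0.29 (adjusted p = 0.000335). Another Rps29 probe set passed against DBS at 0.27 ± 0.07 (adjusted p = 0.00286), and the remaining Rps29 probe set did not (0.15, adjusted p = 0.3). The other Rps28 probe sets did not pass either (0.15 and 0.09, adjusted p = 0.076 and 0.257). Against GNPC, Rps4x did not pass in 2 of the 9 fits that left out 1 sample, and Rps7 in 1.

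**Figure D3:**
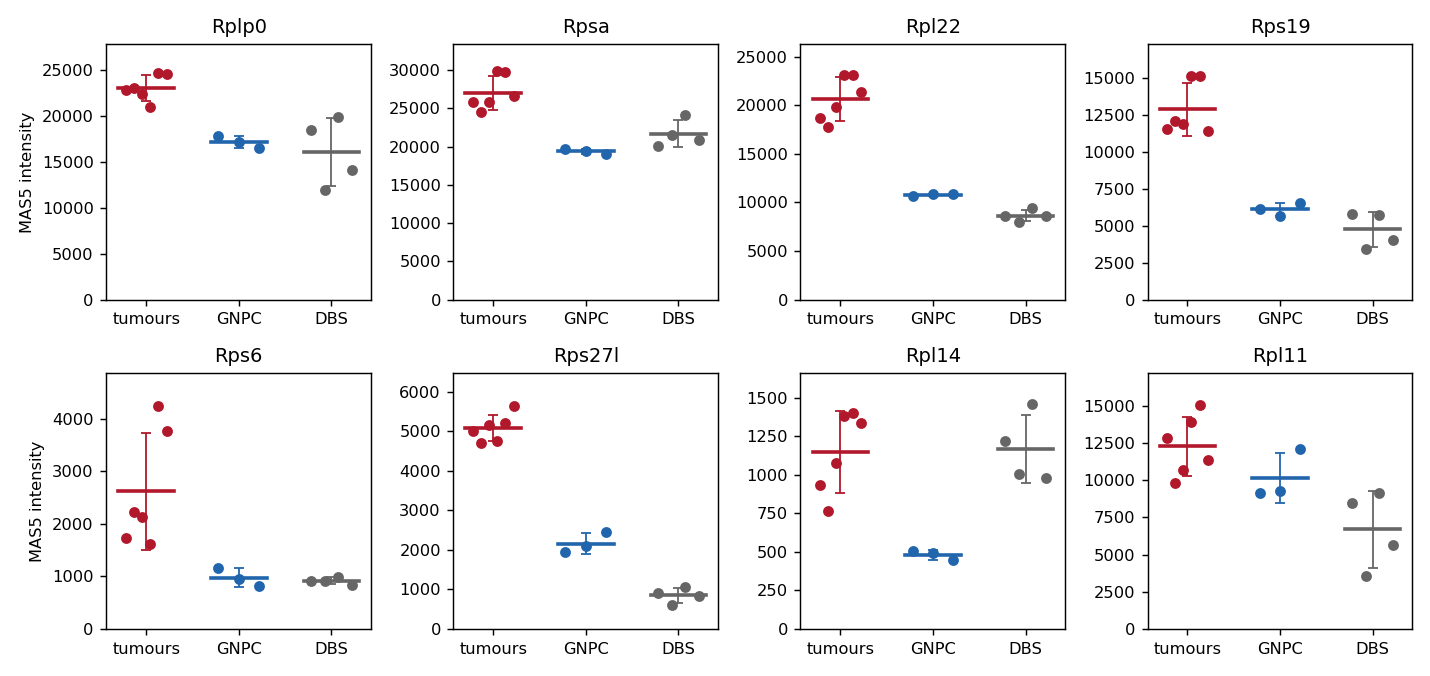
MAS5 intensity of 8 ribosomal protein genes in each sample, on linear axes from 0, with group means (lines) and SD (bars) for 6 tumours, 3 GNPC and 4 DBS samples. Rplp0, Rpsa, Rpl22, Rps19, Rps6 and Rps27l are higher in all tumours than in all normal samples; Rpl14 is low in GNPC alone, and Rpl11 overlaps between tumours and GNPC.

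Among the paralogs, Rps27l and Rpl7l1 were higher in both tumour comparisons and Rpl22l1 passed neither. Rps27l, a near copy of Rps27 that p53 induces in human cells, had 5010.1, 4711.4, 5157.2, 4758.9, 5217.4 and 5628.9 in tumours, 1938.9, 2089.3 and 2446.0 in GNPC and 903.0, 594.2, 1055.4 and 834.5 in DBS. The 3 groups stood apart in the order tumours, GNPC, DBS. The log2 difference was 1.23 ± 0.15 against GNPC (adjusted p = 1.27e-05) and 2.59 ± 0.13 against DBS (adjusted p = 4.51e-10), or 2.35-fold and 6.01-fold on the fitted scale, the second being the largest of the 46 genes against DBS. Its canonical partner Rps27 was read from a dim probe set with 53.6 to 185.6 in tumours, 60.1 to 179.2 in GNPC and 68.9 to 192.6 in DBS, above the array median on 5 of 13 arrays, and passed no test (adjusted p = 0.949 and 0.795). Rpl7l1, a paralog of Rpl7, averaged 2517 ± 237 in tumours, 1483 ± 145 in GNPC and 1053 ± 124 in DBS. The log2 differences of Rpl7l1 were 0.75 ± 0.12 and 1.25 ± 0.11 (adjusted p = 0.000153 and 1.11e-07), and those of Rpl7 were 0.43 ± 0.08 and 0.37 ± 0.07 (adjusted p = 0.000411 and 0.000258, the first 0.06 after quantile normalization). Other Rpl7 probe sets, dimmer than that one, gave larger differences. One had 0.76 ± 0.15 against GNPC and 1.17 ± 0.13 against DBS, another 1.38 ± 0.22 and 1.84 ± 0.20. The other Rpl7l1 probe sets had 0.62 ± 0.12 and 1.15 ± 0.11, and 0.51 ± 0.57 and 3.55 ± 0.52. The order of paralog and partner therefore depended on the probe set. Whether paralog and partner differ in their change was not tested.

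Rpl22l1, the paralog of Rpl22, had 9132.5, 4206.1, 9393.7, 10422.5, 9885.0 and 8249.6 in tumours, 6437.3, 7305.8 and 5404.7 in GNPC and 6655.6, 5769.9, 7195.3 and 6395.1 in DBS. Tumour 2 was below every normal sample and the other tumours above all of them. With all tumours it did not pass (log2 difference 0.37 ± 0.22 from GNPC and 0.34 ± 0.20 from DBS, adjusted p = 0.184 and 0.146). Without tumour 2 the differences were 0.57 and 0.53 (adjusted p = 0.000844 and 0.000328). Rpl39 had log2 differences of 0.01 ± 0.28 and -0.04 ± 0.25 at a mean intensity of 198.8, and neither passed. Rps19bp1, which encodes a protein that binds Rps19 and is not a subunit of the ribosome, had 0.27 ± 0.13 and -0.13 ± 0.12 (adjusted p = 0.103 and 0.328), the first passing with arrays at the same median (0.51, adjusted p = 0.00924) and after quantile normalization (0.37, adjusted p = 0.0278).

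Between the normal tissues the family showed no common direction. Of the 46 genes, 5 were higher in GNPC than in DBS (23.0% of all genes were), 11 were lower (20.9% were) and 30 did not pass, with a median log2 difference of -0.04 beside 0.04 over all genes. Of the 20 genes with more than 1 tested probe set, 12 had probe sets of both signs in this comparison. At least 2-fold, 1 gene was higher and 1 lower (8.74% and 9.68% of all genes). Every GNPC value exceeded every DBS value in 5 genes (28.6% of all genes) and lay below every DBS value in 16 (27.3%). The counts changed with the scaling: arrays set to the same median gave 1 higher and 14 lower, and quantile normalization 14 higher and 4 lower. They also changed when 1 sample was left out, being 2 to 8 higher and 5 to 10 lower. Rps27l was higher in GNPC by 1.35 ± 0.16 (adjusted p = 1.18e-05) and Rpl7l1 by 0.49 ± 0.13 (adjusted p = 0.00723), and both held with any 1 sample left out; with arrays at the same median the second had an adjusted p of 0.076. Rps9 and Rpl11 were higher in GNPC by 0.69 ± 0.25 and 0.68 ± 0.26 (adjusted p = 0.042 and 0.0437). Neither passed without DBS 2, which was low in both (log2 differences 0.39 and 0.41, adjusted p = 0.0762 and 0.109), nor without DBS 4 or any 1 GNPC sample. Rpl14 was lower in GNPC at a log2 difference of -1.23 ± 0.21 (adjusted p = 0.000284), Rpl12 at -0.65 ± 0.20 (adjusted p = 0.0179, and 0.115 without GNPC 3) and Rps18 at -0.36 ± 0.08 (adjusted p = 0.0028, and 0.227 after quantile normalization). With probe sets averaged, Rps18 had -0.09 (adjusted p = 0.599). The other tested Rps18 probe sets gave 0.03 and 0.05 (adjusted p = 0.9 and 0.861). Rpl27a was lower at a log2 difference of -0.76 ± 0.26 (adjusted p = 0.0312), and at -0.50 without DBS 2 (adjusted p = 0.0789). Rps19bp1 was lower at a log2 difference of -0.40 ± 0.14 (adjusted p = 0.0312), with an adjusted p of up to 0.161 with 1 sample left out.

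Members were also compared with each other, by subtracting a mean of the family from each array. The counts depend on which probe sets that mean covers. The mean of 1 probe set per gene, a choice made after the data were seen, differed by 0.61 on the log2 scale between tumours and GNPC and by 0.58 between tumours and DBS. Against it, 9 genes stood above and 6 below in tumours against GNPC, and 12 above and 19 below in tumours against DBS. Because the mean is that of the members themselves, members lie on both sides of it by construction. The median of all genes was -0.63 and -0.58 after this subtraction, and the shares of all genes called are not given here. The mean of all 93 tested probe sets, which also counts the other probe sets of a gene, differed by 0.73 and 0.88. Against this mean, 7 genes stood above and 21 below, and 6 above and 31 below. Rps27l, Rps19, Rps6 and Rpl22, each read from its brightest probe set, stood above both means in both tumour comparisons. Against the mean of all 93, Rps27l did so by 0.51 ± 0.13 against GNPC and 1.70 ± 0.12 against DBS on the log2 scale (adjusted p = 0.00347 and 4.87e-09). Rps19 did so by 0.34 ± 0.12 and 0.57 ± 0.11 (adjusted p = 0.0201 and 0.000198), Rpl22 by 0.20 ± 0.08 and 0.36 ± 0.07 (adjusted p = 0.0324 and 0.000239), and Rps6 by 0.59 ± 0.25 and 0.51 ± 0.23 (adjusted p = 0.042 and 0.0494). For Rpl22 this depended on the probe set. Before any mean was subtracted, another Rpl22 probe set differed by 0.57 from GNPC and 0.30 from DBS, less than either mean. The remaining Rpl22 probe set differed by 1.71 and 1.55, more than either mean.

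In the tumour comparisons, probe sets of the same gene mostly differed in the same direction. Among all 93 tested probe sets, 81 were higher in tumours than in GNPC (20.5% of all probe sets were) and 73 higher than in DBS (35.6%), with 0 lower in either (24.6% and 32.4% of all were) and median log2 differences of 0.70 and 0.73. In the 20 genes with more than 1 tested probe set, all probe sets had the same sign in 18 genes against GNPC and in 20 against DBS, but in only 8 between GNPC and DBS. The probe set with the highest mean gave a smaller difference than the median of the gene's others in 12 of 20 genes against GNPC and in 17 of 20 against DBS. Rps10, the gene of a small subunit protein near the mRNA entry channel, is an example. Its brightest probe set gave 0.97 ± 0.21 against GNPC and 0.95 ± 0.19 against DBS (adjusted p = 0.00187 and 0.00048). Another Rps10 probe set, picked after its values were seen, had 7133.9, 5146.2, 4446.6, 11190.4, 16032.0 and 7363.0 in tumours, 1067.6, 890.0 and 1226.0 in GNPC and 977.8, 620.4, 1038.4 and 613.5 in DBS. Its log2 differences were 2.86 ± 0.33 and 3.27 ± 0.30 (adjusted p = 9.29e-06 and 1.6e-07).

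**Figure D4:**
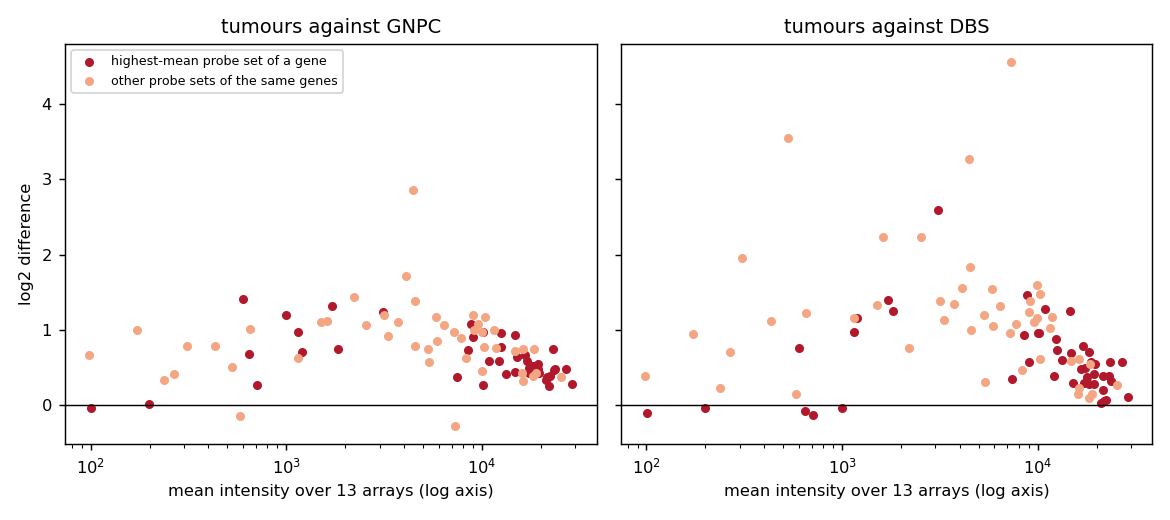
Log2 difference of the 93 tested probe sets of ribosomal protein genes against their mean intensity over 13 arrays (log axis), for tumours against GNPC (left) and tumours against DBS (right). Dark points are the probe set with the highest mean of each gene and light points the gene's other probe sets. Of all 93, 90 lie above 0 on the left and 88 on the right.

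Of the probe sets with several symbols, 104 passed the filter. Of these, 88 were higher in tumours than in GNPC and 1 lower, where 19.6% and 24.3% of all probe sets of that fit were. Against DBS 76 were higher and 5 lower (35.7% and 31.2%), and between GNPC and DBS 4 were higher and 19 lower (24.2% and 16.9%). Their median log2 differences were 0.62, 0.51 and -0.05. These probe sets detect transcripts of more than 1 gene or pseudogene, so no single gene can be read from them.

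Genes that act with the ribosomal proteins were examined in lists. Beside the list counts below, 22.5% of all 12270 genes were called higher in tumours than in GNPC and 26.3% lower. Against DBS these shares were 34.9% and 35.5%. Of 74 measured genes of ribosome biogenesis, 60 were higher in tumours than in GNPC and 0 lower, and 67 were higher than in DBS and 1 lower, with median log2 differences of 0.72 and 1.01. Dkc1, the pseudouridine synthase of ribosomal RNA, averaged 3339 in tumours, 1270 in GNPC and 978 in DBS (log2 differences 1.38 ± 0.10 and 1.75 ± 0.09, adjusted p = 2.6e-07 and 4.68e-10). Emg1, a methyltransferase of the small subunit's RNA, averaged 7008, 3092 and 1135 in the same order (1.17 ± 0.12 and 2.60 ± 0.11, adjusted p = 3.81e-06 and 5.6e-11). The gene lower than in DBS was Bysl, which acts in small subunit assembly, at a log2 difference of -1.30 ± 0.12 (adjusted p = 2.06e-07). Of 12 measured genes of RNA polymerase I and its factors, 8 were higher than in GNPC and 10 higher than in DBS, and 0 lower. Polr1b, its second largest subunit, was higher by 1.95 ± 0.25 and 1.81 ± 0.23 (adjusted p = 2.76e-05 and 5.62e-06). Polr1a, the largest subunit, was higher by 1.32 ± 0.15 and 1.43 ± 0.14 (adjusted p = 8.96e-06 and 2.65e-07), and Polr1c, shared with RNA polymerase III, by 1.03 ± 0.26 and 2.71 ± 0.24 (adjusted p = 0.00499 and 1.12e-07). Nop56, a core protein of box C/D small nucleolar ribonucleoproteins, was higher by 1.26 ± 0.12 and 1.06 ± 0.11 (adjusted p = 1.71e-06 and 4.81e-07), and Ebna1bp2, a large subunit assembly factor, by 1.06 ± 0.20 and 2.19 ± 0.18 (adjusted p = 0.000631 and 6.49e-08).

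Of 14 measured genes of translation factors and other proteins whose mRNAs carry a TOP motif, 11 were higher in tumours than in GNPC and 0 lower, and 12 were higher than in DBS and 1 lower, with a median log2 difference of 0.54 in both. The list shares Npm1 with that of ribosome biogenesis. Npm1, the nucleolar chaperone nucleophosmin, was higher by 0.93 ± 0.10 and 0.96 ± 0.09 (adjusted p = 4.6e-06 and 1.78e-07). Hnrnpa1, an RNA-binding splicing factor, was higher by 0.87 ± 0.13 and 1.48 ± 0.12 (adjusted p = 8.74e-05 and 3.75e-08), and Eef1d, of the exchange factor of Eef1a1, by 0.61 ± 0.16 and 1.33 ± 0.15 (adjusted p = 0.00696 and 1.4e-06). Eef1a1, which brings aminoacyl-tRNA to the ribosome, was lower than in DBS at a log2 difference of -0.19 ± 0.08 (adjusted p = 0.0416) and did not pass against GNPC. The groups overlapped, and the call was lost in 5 of the 10 fits that left out 1 sample (adjusted p up to 0.142). Of 23 initiation factor genes, 11 were higher and 1 lower against GNPC, where 22.5% and 26.3% of all genes were. Against DBS 19 were higher and 1 lower, where 34.9% and 35.5% of all genes were. Eif4ebp1, the mTOR-regulated inhibitor of the cap-binding protein Eif4e, had 1096.7, 1093.9, 2087.2, 1439.2, 2611.0 and 2290.8 in tumours, 98.5, 122.6 and 102.0 in GNPC and 87.3, 81.2, 121.9 and 106.4 in DBS. Its log2 differences were 3.75 ± 0.26 and 3.86 ± 0.24 (adjusted p = 1.85e-07 and 2.53e-09). The lower gene in both was Eif4a2, an RNA helicase of initiation, at a log2 difference of -0.57 ± 0.14 and -0.90 ± 0.12 (adjusted p = 0.00326 and 1.33e-05). Fau, whose product is cleaved into a ubiquitin-like protein and a small subunit protein, was higher by 0.58 ± 0.20 and 0.91 ± 0.18 (adjusted p = 0.0255, and up to 0.0791 with 1 sample left out, and 0.000354).

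Ribosomal proteins of mitochondria, which translate the mitochondrial genome, were higher in 31 of 76 measured genes against GNPC and in 58 against DBS, with 0 and 1 lower and median log2 differences of 0.34 and 0.58. Of all genes, 22.5% and 34.9% were higher in these comparisons and 26.3% and 35.5% lower. Mrps33 was higher by 0.97 ± 0.14 and 1.37 ± 0.13 (adjusted p = 5.68e-05 and 1.64e-07), and Mrpl2 by 0.39 ± 0.19 and 1.45 ± 0.17, of which the second passed (adjusted p = 0.103 and 2.62e-06). Mrps6 was lower than in DBS, at -0.65 ± 0.12 (adjusted p = 0.00018). Between GNPC and DBS, 26 of these were higher and 3 lower (median 0.28), and of the ribosome biogenesis genes 29 of 74 were higher and 3 lower (median 0.30), where 23.0% of all genes were higher and 20.9% lower.

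**Figure D5:**
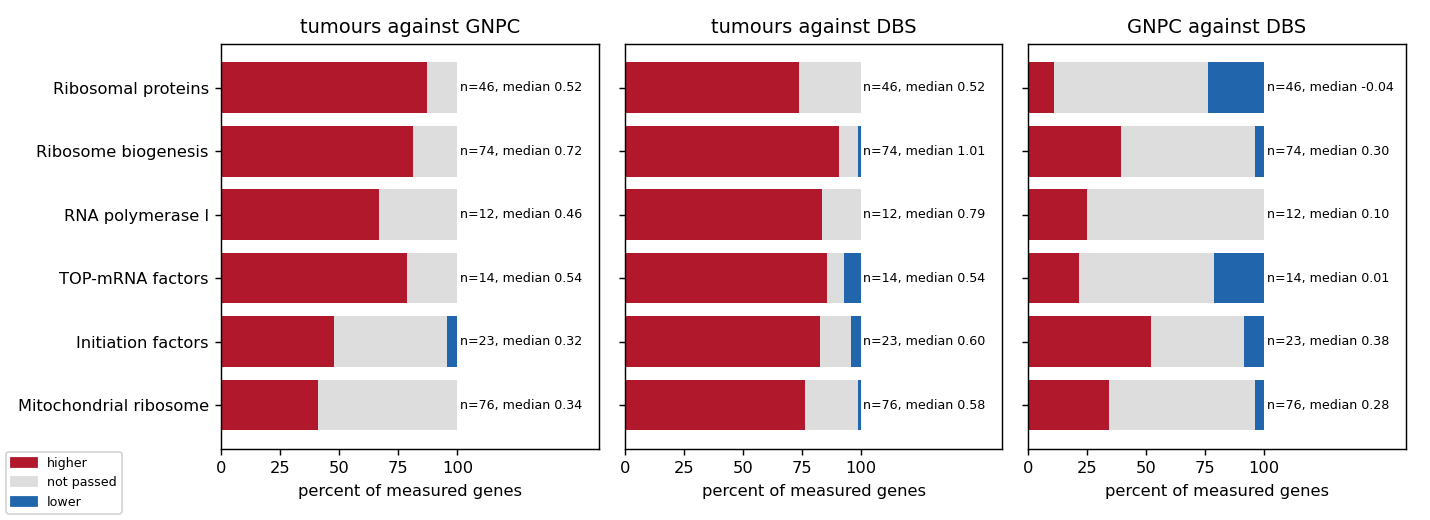
Percent of the measured genes of each list called higher (red), not passed (grey) or lower (blue) at an adjusted p under 0.05 in the 3 comparisons, with the number measured and the median log2 difference printed beside each bar. Ribosomal protein and ribosome biogenesis genes are mostly red in both tumour comparisons, with medians of 0.52 and 0.52, and 0.72 and 1.01.

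Of the transcription and growth regulators listed, 7 of 9 were measured. Mycn had 9862.0, 9815.8, 8083.6, 10951.3, 10922.1 and 10494.7 in tumours, 2607.4, 3315.9 and 4033.7 in GNPC and 1172.9, 1222.5, 1086.7 and 1144.2 in DBS. The groups did not overlap, and the log2 differences of Mycn were 1.60 ± 0.13 and 3.09 ± 0.12 (adjusted p = 5.33e-07 and 2.43e-11). Myc averaged 621 ± 164 in tumours, 196 ± 12.3 in GNPC and 531 ± 86.0 in DBS. It was higher than in GNPC by 1.54 ± 0.20 (adjusted p = 3.29e-05), and its difference from DBS was 0.19 ± 0.19 (adjusted p = 0.376). Mtor was lower in tumours than in either tissue, at a log2 difference of -0.71 ± 0.11 and -1.14 ± 0.10 (adjusted p = 0.000107 and 9.67e-08), and so was Rptor, its partner in complex 1, at -0.41 ± 0.12 and -0.92 ± 0.11 (adjusted p = 0.0125 and 2.59e-06). The first Rptor call was lost in 2 of the 9 fits that left out 1 sample, with an adjusted p of up to 0.0816. Larp1, which binds TOP mRNAs, had a log2 difference of 0.01 ± 0.12 from GNPC (adjusted p = 0.975) and was lower than in DBS at a log2 difference of -0.61 ± 0.11 (adjusted p = 0.000176).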

How the data were processed

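The values deposited by the authors are linear array intensities, and the only tool that the submitters' processing notes name is MAS5. When the lowest and highest 2% of values were left out, the mean of the array checked was 500, the mark of a single scaling factor. The other arrays were not checked in this way. Intensities lay between 0.1 and 37660.4, and array medians between 91.3 and 117.5. The number of arrays limits precision. Samples were grouped by source name. Their numbers are only names, and since the labels give no batch, batch and group cannot be told apart.

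Probe sets with 1 gene symbol in the platform annotation that exceeded their array's median on at least 3 arrays were tested as log2(intensity + 18), 18 being the 20th percentile of all values, which understates changes of dim genes. One limma model (version 3.58.1, R 4.3.3) with 3 group means covered the 13 samples, with eBayes and an intensity trend, and p-values were adjusted by Benjamini-Hochberg over all its probe sets. On simulated data with 21628 probe sets, log2 changes of 0.5, 1 and 2 between tumours and GNPC were recovered at 6%, 65.7% and 97%, with 2 false calls. Only a small share of the simulated probe sets was changed, whereas 20.5% were called higher and 24.6% lower against GNPC in the data. The adjusted threshold was therefore stricter in the simulation, and these recoveries do not give the power of the tests reported here. The members and lists were chosen with earlier results of these data known. Named genes were the stalk, 5S partners, Rpsa, Rps6, Rps19, paralog pairs, the 5 largest called differences each way per comparison, the 3 most variable among tumours, and of each other list the 2 largest each way, of which some are left out. Other members were named after their values were seen, to account for each. Alternatives were other scalings, filters, pseudocounts, probe set rules and leaving out each sample.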

Additional observations from a re-analysis of the deposited data

Results flagged for a closer look

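In 40 sets of 4 or 6 samples of 1 group, taken for the named members, 3 had a sample far from the others by Dixon's criterion, which chance meets in about 1 in 20. Rpl22l1 in tumour 2 was 4206.1, below the other 5 tumours (8249.6 to 10422.5). Rps27, a dim probe set, was 185.6 in tumour 4 (53.6 to 99.2 in the others) and 192.6 in DBS 2 (68.9 to 90.0 in the others).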

How the results depend on the processing

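No paired analysis was possible because each sample came from its own mouse and the labels give no pairs. Counts of 0 lower genes in tumours held under all alternatives but 2, and the direction of the family's median in both tumour comparisons too. The exceptions set every array to the same mean of the family, which by construction removes a shared change. The mean of all 93 tested member probe sets gave 7 higher and 21 lower against GNPC (median -0.21), 6 and 31 against DBS (-0.36), and 17 lower between GNPC and DBS. Under it the log2 differences against GNPC and DBS turned to -0.30 and -0.34 in Rplp0, -0.13 and -0.09 in Rplp2, -0.25 and -0.56 in Rpsa, -0.30 and -0.51 in Rpl7, and -0.35 and -0.54 in Rpl22l1. Against GNPC alone they turned to -0.46 in Rpl11, -0.72 in Rpl39, -0.46 in Rps19bp1 and -0.04 in Rpl27a, and against DBS alone to -0.12 in Rpl12 and -0.50 in Rps18. The mean of 1 probe set per gene, chosen after seeing the data, gave 9 higher and 6 lower against GNPC (median -0.09) and 12 and 19 against DBS (-0.07). Under it Rplp0 turned to -0.18 and -0.04, Rpsa to -0.13 and -0.27 and Rpl7 to -0.17 and -0.21, Rplp2 and Rps19bp1 turned to -0.01 and -0.34 against GNPC, and Rps18 to -0.20 against DBS. Requiring 2-fold left 5 and 7 genes higher in tumours and 1 higher and 1 lower between GNPC and DBS. Arrays at the same median moved the median of all genes to 0.21 against GNPC and 0.12 against DBS, and that of the family against GNPC to 0.76. They left 1 gene higher in GNPC than in DBS. Quantile normalization gave a median of 0.28 against GNPC (29 higher), and 14 higher and 4 lower between GNPC and DBS; the cause was not tested. Without probe sets whose names mark shared or similar sequence, 22 genes remained, 18 and 15 higher in tumours (medians 0.74 and 0.76), and 2 higher and 5 lower in GNPC than in DBS. There Rpl22 turned to -0.17 between GNPC and DBS, and to -0.04 with probe sets averaged. Between GNPC and DBS, no filter left 3 higher, and eBayes without a trend 2 higher and 5 lower. Leaving out 1 sample gave 34 to 41 genes higher than GNPC (median 0.49 to 0.56) and 34 to 36 higher than DBS (0.44 to 0.59). Between GNPC and DBS it gave 2 to 8 higher and 5 to 10 lower (-0.09 to 0.01): without GNPC 3, 2 and 5; without GNPC 1 or GNPC 2, 3 and 7; without DBS 2, 3 and 8; without DBS 3, 8 and 7; without DBS 4, 3 and 9. Admitting probe sets with any number of symbols, or only genes above the median on all arrays, both chosen after seeing the data, moved no count by over 1.5 times.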

Other observations

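One probe set of Rps9, chosen after its values were seen, split the tumours. Its intensities were 14510.8, 14740.5, 519.4, 659.5, 21983.9 and 20497.4 in tumours 1 to 6, 5689.5, 7016.4 and 8321.0 in GNPC and 278.8, 210.6, 177.1 and 241.6 in DBS. The brightest Rps9 probe set did not split them in this way, with 12829.2 and 16353.7 in tumours 3 and 4. The remaining Rps9 probe set, dimmer than both, had 386.8, 484.8, 499.2, 491.5, 463.6 and 478.0 in tumours, 252.4, 283.1 and 249.1 in GNPC and 120.6, 101.0, 109.4 and 95.6 in DBS. A probe set of Rpl7l1, also chosen after its values were seen, had 614.4 to 916.2 in tumours, 532.8 to 567.6 in GNPC, and 1.7, 178.3, 13.7 and 172.7 in DBS.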
